A study of Mus musculus with 6 samples.

Results

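The genes described here are SLC5A6, which encodes the sodium-dependent multivitamin transporter, and the human genes that attach, recycle or use biotin: HLCS, BTD, PC, PCCA, PCCB, MCCC1, MCCC2, ACACA and ACACB. These 10 genes were picked by gene name from the 58735 genes of the deposited count table, and all 10 had enough counts to be tested. SLC5A6 was chosen by its change between the 2 groups compared below, so its values are given as a description with no test, and the 9 enzyme genes were added for their tie to biotin with results of the same comparison known. RNA-Seq covered 22Rv1, a human prostate cancer cell line that expresses the androgen receptor, as parental cells given vehicle (Parent, 3 libraries) and as a subline that had grown in stepwise rising concentrations of BL-B01D1 (BL-B01D1_R, 3 libraries). BL-B01D1 is an antibody-drug conjugate directed at EGFR and HER3 with the cytotoxic payload Ed-04. Both groups came from the same line, and the study describes a single selection, so the spread between libraries did not cover a repeated selection, and drift between the lines and resistance cannot be told apart. Whether the resistant cells were in drug when RNA was taken is not given in the sources used here. The gene identifiers are human, although mouse is given as the organism of the samples.

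Biotin and pantothenate cannot be made by human cells and enter them through SLC5A6, a member of the sodium-coupled SLC5 carrier family that also carries lipoate. Holocarboxylase synthetase (HLCS) links biotin to a lysine of each carboxylase, and biotinidase (BTD) frees it again when those enzymes are broken down. The biotin-dependent carboxylases add a carboxyl group in gluconeogenesis and refilling of the citric acid cycle (PC), in propionate breakdown (PCCA and PCCB), in leucine breakdown (MCCC1 and MCCC2) and in the making of malonyl-CoA for fatty acid synthesis and its control (ACACA and ACACB). RPMI, the medium in which the study kept 22Rv1, contains biotin and pantothenate.

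Total counts on genes lay between 13821639 and 17251491 per library. The 9 markers of prostate luminal epithelium were all expressed, with a summed level of 786 to 808 FPKM (counts scaled for library size and for listed gene length) in Parent and 827 to 853 FPKM in BL-B01D1_R, although KLK3, the gene of prostate-specific antigen, was low, at 0.575 ± 0.12 FPKM (SD, n = 3) and 1.07 ± 0.27 FPKM (SD, n = 3). The 4 leukocyte markers summed to at most 0.659 FPKM and the 3 endothelial markers to at most 0.0178 FPKM in any library, and CD3E and CDH5 had no counts. The 4 fibroblast markers went from 32.8–34.5 to 9.94–11.4 FPKM, almost all of it LUM, and the 4 neuroendocrine markers from 31.3–33.8 to 22.1–23.7 FPKM, of which CHGA fell and SYP did not pass the test. The part of these shifts in the results below was not tested.

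SLC5A6 mRNA was about 13.0-fold higher in the resistant subline. The gene (ENSG00000138074) occupies bases 27199587 to 27212958 of chromosome 2 in hg38 and is read from the reverse strand. The Parent libraries held 735, 741 and 666 counts of it, and the BL-B01D1_R libraries 9726, 8653 and 9439. Per length and depth, its level was 7.61, 7.87 and 8.56 FPKM in Parent and 104.7, 104.9 and 103.8 FPKM in BL-B01D1_R. All resistant libraries stood far above all parental ones, and the resistant libraries differed from each other by little more than 1 FPKM. The log2 fold change was 3.71 (SE 0.037), placing SLC5A6 at 21 by size among the 434 genes called higher. Among the 17142 genes tested, its level ranked 5952 from the top in Parent and 311 in BL-B01D1_R, which is a move from percentile 65.3 to percentile 98.2. In bulk RNA, more cells with SLC5A6 mRNA and more of it per cell cannot be told apart.

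**Figure D1:**
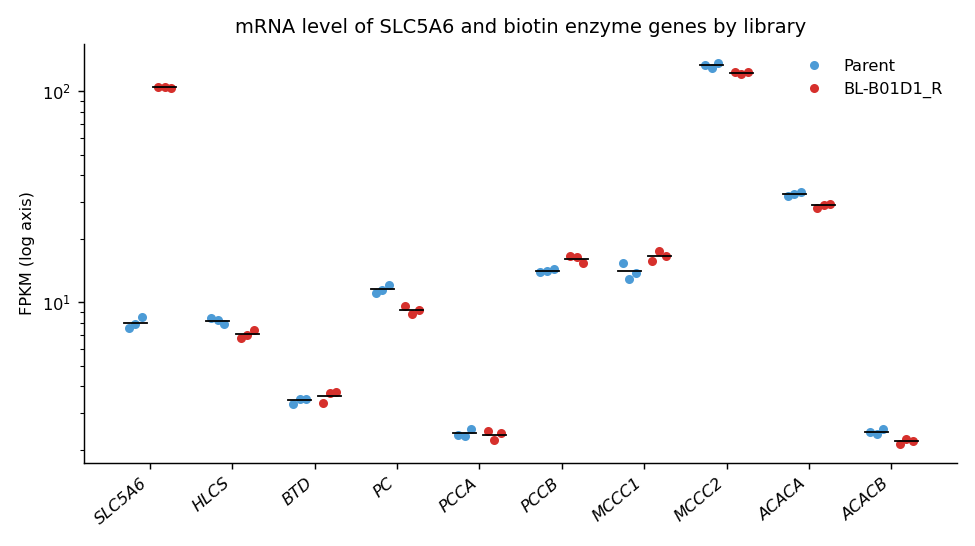
Level of each gene in FPKM on a log axis, with 1 point per library (blue Parent, red BL-B01D1_R, 3 each) and a black line at the mean. SLC5A6 moved from 8.01 to 104.5 FPKM, whereas the enzyme genes kept nearly the same place in both groups.

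No enzyme gene moved on that scale. A gene was called at an FDR of less than 0.05 with an absolute log2 fold change greater than 1, and by this rule 1 of the 10 genes, SLC5A6, was called higher and 0 were called lower. Of all genes tested, 2.53% were called higher and 2.84% lower. At an FDR of less than 0.05 alone, 3 of the 10 genes were higher (SLC5A6, PCCB and MCCC1) and 4 were lower (HLCS, PC, MCCC2 and ACACA), against 17.1% and 18.4% of all genes tested. Libraries of the groups did not overlap in 3 genes that were higher and 5 that were lower, against 22.1% and 22.8% of all genes tested. Because SLC5A6 was taken from this same comparison, these counts are a description. The 9 enzyme genes had log2 fold changes from −0.33 to 0.24 with a median of −0.11, beside a median of 0.00379 over all genes tested, and their median absolute log2 fold change of 0.18 was close to the 0.17 of all genes tested.

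HLCS, the enzyme that charges all of these carboxylases with biotin, was slightly lower in the resistant subline. Its level was 8.40, 8.25 and 7.94 FPKM in Parent and 6.78, 7.01 and 7.43 FPKM in BL-B01D1_R. The groups did not overlap, and HLCS fell by 13.7% (log2 fold change −0.21, SE 0.053). In Parent, SLC5A6 and HLCS were at about the same level, with a ratio of SLC5A6 to HLCS of 0.979 ± 0.089 (SD, n = 3), and in BL-B01D1_R the ratio was 14.8 ± 0.75 (SD, n = 3).

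BTD, which recycles biotin from spent enzyme, had 3.32, 3.51 and 3.49 FPKM in Parent and 3.35, 3.74 and 3.78 FPKM in BL-B01D1_R. The groups overlapped, with a log2 fold change of 0.074 (SE 0.083). These values rest on 283 to 358 counts per library. The first 512 bases of BTD overlap HACL1 on the other strand, for which the log2 fold change was 0.091 (FDR 0.343 in edgeR's quasi-likelihood test), and whether counting used strand is not given in the sources used here.

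PC, the mitochondrial enzyme that turns pyruvate into oxaloacetate, had the lowest log2 fold change of the set. Its level was 11.1, 11.5 and 12.1 FPKM in Parent and 9.62, 8.80 and 9.16 FPKM in BL-B01D1_R. All resistant libraries lay below all parental ones, and PC fell by 20.7% (log2 fold change −0.33, SE 0.053). LRFN4 lies inside the span of PC on the opposite strand, and its log2 fold change was 0.055 (FDR 0.685 in the same edgeR test).

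Of the subunits of propionyl-CoA carboxylase, PCCB rose and PCCA did not pass the test. PCCA, the subunit that carries biotin, was the less expressed of the pair, at 2.36, 2.34 and 2.52 FPKM in Parent and 2.46, 2.24 and 2.40 FPKM in BL-B01D1_R, and these values overlapped (log2 fold change −0.019, SE 0.089). GGACT overlaps 274 bases of PCCA from the other strand, with a log2 fold change of 0.12 (edgeR FDR 0.312). PCCB, the subunit that carries the carboxyl transfer site, had 13.9, 14.1 and 14.4 FPKM in Parent and 16.6, 16.4 and 15.4 FPKM in BL-B01D1_R. It rose by 14.1% with no overlap between the groups (log2 fold change 0.19, SE 0.040). At its end, PCCB overlaps 1664 bases of STAG1 on the other strand, which went the opposite way (log2 fold change −0.29, edgeR FDR 6.00e-07). The ratio of PCCA to PCCB in FPKM was 0.170 ± 0.0050 (SD, n = 3) in Parent and 0.147 ± 0.0097 (SD, n = 3) in BL-B01D1_R, and every resistant library had a lower ratio than every parental one.

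The subunits of methylcrotonyl-CoA carboxylase, an enzyme of leucine breakdown, moved in opposite directions. MCCC1, which carries biotin, had 15.4, 13.0 and 13.7 FPKM in Parent and 15.8, 17.5 and 16.6 FPKM in BL-B01D1_R. The highest parental library came close to the lowest resistant one without passing it, and MCCC1 rose by 18.5% (log2 fold change 0.24, SE 0.055). MCCC2, the partner subunit, was the most expressed gene of the set, at 132.4, 129.0 and 136.0 FPKM in Parent and 123.5, 120.6 and 123.0 FPKM in BL-B01D1_R. It fell by 7.63% without overlap (log2 fold change −0.11, SE 0.025). The ratio of MCCC1 to MCCC2 in FPKM went from 0.106 ± 0.0089 (SD, n = 3) to 0.136 ± 0.0085 (SD, n = 3), with every resistant library above every parental one.

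Both acetyl-CoA carboxylase genes were a little lower. ACACA, the cytosolic form that feeds fatty acid synthesis, had 32.0, 32.5 and 33.4 FPKM in Parent and 28.1, 29.0 and 29.4 FPKM in BL-B01D1_R. It fell by 11.7% with no overlap (log2 fold change −0.18, SE 0.028). ACACB, the form at the mitochondrial outer membrane whose product holds back fatty acid import, had 2.43, 2.39 and 2.52 FPKM in Parent and 2.15, 2.26 and 2.21 FPKM in BL-B01D1_R. Its groups did not overlap either, but its log2 fold change of −0.15 (SE 0.066) did not pass the FDR threshold. The ratio of ACACA to ACACB in FPKM was 13.3 ± 0.21 (SD, n = 3) in Parent and 13.1 ± 0.24 (SD, n = 3) in BL-B01D1_R, and these ranges overlapped.

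**Figure D2:**
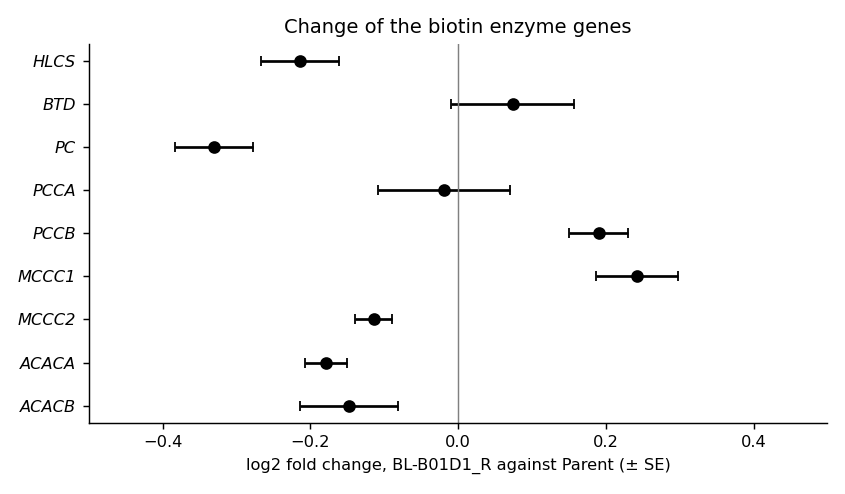
Log2 fold change of BL-B01D1_R against Parent for the 9 enzyme genes (points, with bars of 1 SE from the edgeR fit). All values lie between −0.33 (PC) and 0.24 (MCCC1), and SLC5A6, at 3.71, is off this scale and not drawn.

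**Figure D3:**
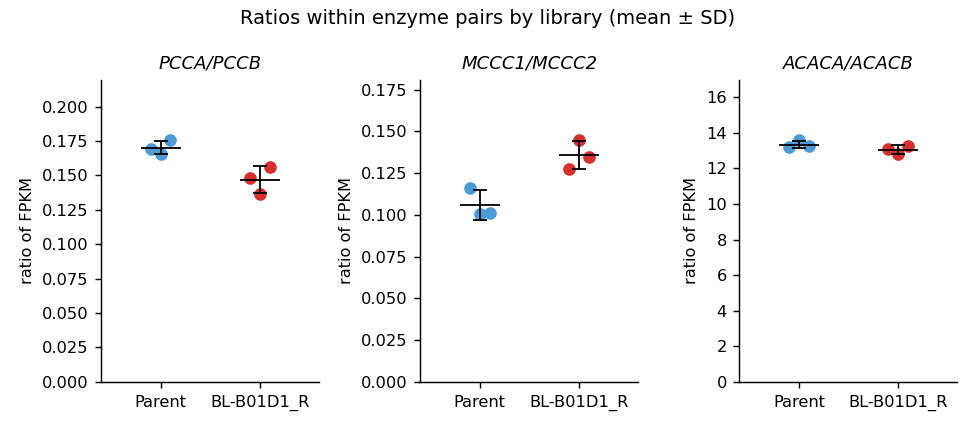
Ratio of FPKM values within enzyme pairs, with 1 point per library, a bar at the mean and whiskers of 1 SD (3 libraries per group, axes from 0). PCCA/PCCB was lower and MCCC1/MCCC2 higher in every BL-B01D1_R library, whereas ACACA/ACACB overlapped.

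By FPKM, the order in Parent was MCCC2, ACACA, PCCB, MCCC1, PC, HLCS, SLC5A6, BTD, ACACB and PCCA. Neighbors in this order had separate ranges over the 3 libraries except for PCCB and MCCC1, HLCS and SLC5A6, and ACACB and PCCA, whose ranges overlapped. MCCC2 exceeded the next gene, ACACA, 4.06-fold. In BL-B01D1_R, SLC5A6 stood at 2 instead of 7, between MCCC2 and ACACA, with a level 0.854 ± 0.014 (SD, n = 3) times that of MCCC2. There, MCCC1 and PCCB had overlapping ranges, as did PCCA and ACACB. Levels between genes rest on the listed lengths, which may exceed the transcript present in these cells.

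SLC5A6 was the SLC5 gene with the highest level in each group. Its share of the summed FPKM of the 12 SLC5 genes was 38.2%, 38.9% and 39.6% in the Parent libraries and 91.6%, 90.6% and 90.6% in the BL-B01D1_R libraries. The other SLC5 genes together summed to 12.3, 12.3 and 13.1 FPKM in Parent and 9.56, 10.9 and 10.8 FPKM in BL-B01D1_R. Of these 11 genes, 5 were tested. At an FDR of less than 0.05 over all genes, 1 was higher and 2 were lower, against 17.1% and 18.4% of all genes tested. With the fold threshold as well, 1 of the 5 was called higher and 0 lower, against 2.53% and 2.84% of all genes tested. The gene called, SLC5A9, a sugar carrier, rose from only 3, 7 and 4 counts to 12, 14 and 29 counts (log2 fold change 1.96, SE 0.49, edgeR FDR 0.00134). With limma on log2(FPKM + 1), which shrinks low genes, its value was 0.23. SLC5A5, the iodide carrier, fell (log2 fold change −0.49, edgeR FDR 4.23e-05), and so did SLC5A3, the myo-inositol carrier (−0.18, edgeR FDR 0.00978). Without the second BL-B01D1_R library the FDR of SLC5A3 was 0.0594. The other 6 genes had at most 16 counts in any library.

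None of the listed carriers and receptors of other vitamins was called. Of 20 such genes, 16 were tested by edgeR, and 3 were higher and 2 were lower at an FDR of less than 0.05. Over all genes tested, these shares were 17.1% and 18.4%. Of the 16 genes, 0 passed the fold threshold as well, while only 2.53% of all genes tested were called higher and 2.84% lower. The median log2 fold change of the 16 genes was 0.068. CUBN, a receptor in cobalamin uptake, rose from 0.377 ± 0.031 to 0.695 ± 0.048 FPKM (SD, n = 3 each; log2 fold change 0.88, edgeR FDR 2.83e-06). SLC44A4, a carrier of thiamine pyrophosphate, rose from 15.1 ± 1.07 to 21.3 ± 0.85 FPKM (SD, n = 3 each; log2 fold change 0.49, edgeR FDR 9.68e-10). The thiamine carrier SLC19A2 fell from 11.5 ± 0.17 to 8.01 ± 0.27 FPKM (SD, n = 3 each; log2 fold change −0.52, edgeR FDR 2.38e-09). For the folate carrier SLC19A1 the log2 fold change was −0.20 (edgeR FDR 0.0150), and its FDR was 0.0698 without the first Parent library and 0.10 without the second BL-B01D1_R library. SLC19A3, a further thiamine carrier, the folate receptor FOLR1 and STRA6, the receptor for retinol-binding protein, had no counts in any library.

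None of the tested genes on the lists for the other substrates of SLC5A6 was called. Of 15 genes on the route from pantothenate to coenzyme A and its breakdown, 12 were tested, with 3 higher, 3 lower and 0 called, and a median log2 fold change of −0.033. Over all genes tested, 17.1% were higher and 18.4% lower by the same FDR, and only 2.53% were called higher and 2.84% lower. The highest 2 were SLC25A16, a mitochondrial carrier tied to coenzyme A (log2 fold change 0.37, edgeR FDR 3.18e-04), and PPCDC, an enzyme of the middle of the route (0.33, edgeR FDR 0.00115). The lowest 2 were NUDT8, a hydrolase of coenzyme A (−0.29, edgeR FDR 0.00389), and PANK3, a kinase of the first step (−0.17, edgeR FDR 2.06e-05). All 9 genes of lipoate attachment and the lipoyl-bearing complexes were tested, with 3 higher, 1 lower and 0 called, and a median of 0.11. Among them, the log2 fold change was 0.38 for GCSH of the glycine cleavage system (edgeR FDR 0.00668), 0.19 for DLD, the shared dehydrogenase subunit (edgeR FDR 5.71e-06), and −0.12 for DLAT of pyruvate dehydrogenase (edgeR FDR 0.00481). For GCSH, the FDR was 0.0691 without the third Parent library and 0.0713 without the third BL-B01D1_R library.

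The lists of steps beside the carboxylases held 1 called gene, BCAT1. Of all genes tested, 2.53% were called higher and 2.84% lower, and by FDR alone 17.1% were higher and 18.4% lower. Around PC, 5 of 6 genes were tested, with 1 higher and 2 lower and a median log2 fold change of −0.11. PCK2, the mitochondrial enzyme that takes the oxaloacetate made by PC to phosphoenolpyruvate, fell from 39.1 ± 0.73 to 27.1 ± 0.57 FPKM (SD, n = 3 each; log2 fold change −0.53, edgeR FDR 1.37e-15). For MPC2 of the pyruvate carrier the log2 fold change was 0.14 (edgeR FDR 0.00553), and its FDR was 0.0545 without the first Parent library. After propionyl-CoA carboxylase, all 4 genes were tested, with 1 higher and 1 lower and a median of 0.082. The mutase that makes succinyl-CoA, listed as MUT, rose (log2 fold change 0.21, edgeR FDR 8.50e-05), and MMAB, which makes its cobalamin cofactor, fell (−0.29, edgeR FDR 7.37e-06).

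In leucine breakdown, 8 of 9 genes were tested, with 4 higher and 1 lower and a median log2 fold change of 0.097. The shares higher and lower over all genes tested were 17.1% and 18.4%. PPM1K, the phosphatase that switches on the branched-chain ketoacid dehydrogenase, rose from 4.82 ± 0.10 to 8.81 ± 0.28 FPKM (SD, n = 3 each; log2 fold change 0.87, edgeR FDR 3.69e-19). BCKDHB, a subunit of that dehydrogenase, rose from 10.5 ± 0.65 to 14.3 ± 0.19 FPKM (SD, n = 3 each; log2 fold change 0.44, edgeR FDR 3.38e-08). BCAT1, the cytosolic transaminase of the first step, fell from 0.882 ± 0.038 to 0.221 ± 0.021 FPKM (SD, n = 3 each; log2 fold change −2.00, edgeR FDR 8.86e-14), from 185, 177 and 137 counts to 39, 42 and 42. With limma on log2(FPKM + 1) its value was −0.62. BCAT1 was the gene called lower among these 8 lists.

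Around the acetyl-CoA carboxylases, 7 of 8 genes were tested, with 1 higher and 2 lower and a median log2 fold change of −0.035. FASN, the fatty acid synthase that uses malonyl-CoA, rose from 115.0 ± 1.98 to 133.2 ± 3.76 FPKM (SD, n = 3 each; log2 fold change 0.21, edgeR FDR 1.61e-09). ACLY, which supplies cytosolic acetyl-CoA, fell from 124.7 ± 1.38 to 110.5 ± 2.18 FPKM (SD, n = 3 each; log2 fold change −0.17, edgeR FDR 5.45e-07). MID1IP1, a protein that promotes polymerization of acetyl-CoA carboxylase, fell from 26.6 ± 1.35 to 16.2 ± 0.26 FPKM (SD, n = 3 each; log2 fold change −0.72, edgeR FDR 2.12e-16). Over all 8 lists, 66 of 82 genes were tested, with 17 higher and 14 lower, against 17.1% and 18.4% of all genes tested. Of the 66 genes, 1 was called higher and 1 lower, against 2.53% and 2.84% of all genes tested. Their median log2 fold change was 0.053. The lists were drawn up with results of these samples known, so nothing particular to them is read from the counts.

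**Figure D4:**
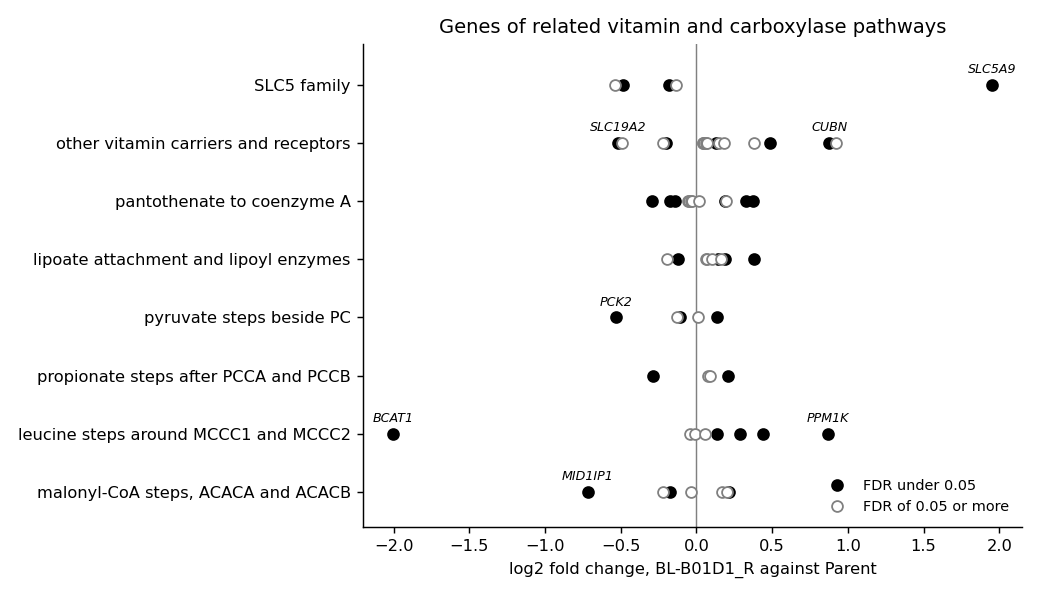
Log2 fold change of BL-B01D1_R against Parent for the 66 tested genes of 8 related pathway lists, 1 row per list. Filled points had an FDR of less than 0.05 in edgeR's test and open points did not, and SLC5A9 (1.96) and BCAT1 (−2.00) lie farthest from 0.

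On chromosome 2, most genes near SLC5A6 did not pass the test, and the same held for all genes tested. SLC5A6 overlaps 932 bases of ATRAID, which runs the other way from a start 931 bases inside that of SLC5A6. ATRAID had 42.4, 42.3 and 43.6 FPKM in Parent and 44.9, 45.6 and 43.3 FPKM in BL-B01D1_R, so its groups overlapped (log2 fold change 0.061, SE 0.043, edgeR FDR 0.290). On the other side, the nearest listed gene, a pseudogene, had no counts, and the nearest tested gene, PREB, lay 64912 bases away, with a log2 fold change of −0.015 (edgeR FDR 0.851).

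Of 24 genes tested whose span reaches within 250 kb of SLC5A6, 6 were higher and 1 was lower at an FDR of less than 0.05. Over all genes tested, these shares were 17.1% and 18.4%. Of the 24 genes, 1 was called higher, against 2.53% of all genes tested, and the median log2 fold change was 0.049. The gene called, SLC30A3, a zinc carrier, went from 2, 1 and 1 counts to 21, 15 and 21 counts, a ratio of 14.2 with a 95% counting interval of 5.26 to 53.9, and its log2 value with limma on log2(FPKM + 1) was 0.24. CAD, the enzyme that opens pyrimidine synthesis, starts 4432 bases from SLC5A6 and was singled out after its values were seen. It had 19.1, 18.5 and 20.0 FPKM in Parent and 37.0, 36.6 and 35.5 FPKM in BL-B01D1_R. All resistant libraries stood well above all parental ones, with a log2 fold change of 0.92 (SE 0.033, edgeR FDR 2.94e-25), below the fold threshold for a call. ATRAID lies between SLC5A6 and CAD.

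**Figure D5:**
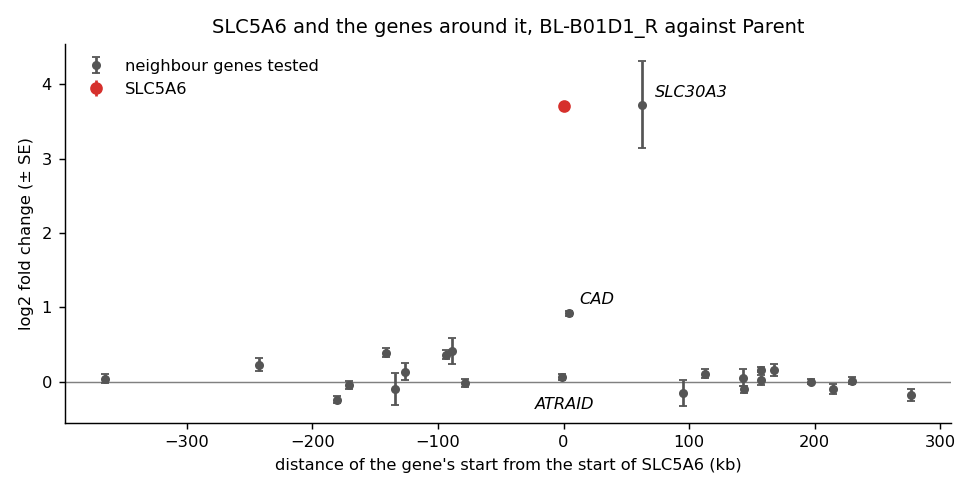
Log2 fold change (points, with bars of 1 SE) of SLC5A6 and of the 24 genes tested whose span reaches within 250 kb, by distance of each gene's start from the start of SLC5A6 in kb. ATRAID (0.061) lies at the start of SLC5A6, and only CAD (0.92) and SLC30A3 (3.72, from at most 2 counts per Parent library) lie more than 0.5 from 0 among these neighbors.

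Genes with a pattern most like that of SLC5A6 were found by the distance between log2 CPM values of the 6 libraries, each less the gene's own Parent mean. Since the pattern is set by the difference between the groups, the measure finds genes of similar fold change, and it was taken over 6 libraries of 2 groups. The nearest were ANKRD30B, TRGC1, SPOCK2, TENM2 and UBE2QL1, at distances of 0.369, 0.387, 0.479, 0.526 and 0.770. All had lower levels than SLC5A6, and the highest of them, SPOCK2, went from a mean of 1.00 FPKM to 15.8 FPKM. SPOCK2, a proteoglycan of the extracellular matrix, went from 111, 100 and 102 counts to 1676, 1496 and 1773. UBE2QL1 had 0, 1 and 0 counts in Parent and 21, 21 and 35 in BL-B01D1_R, so its place here rests on the prior count added before taking logs. TRGC1 has a near-identical partner gene, TRGC2, and how reads that match both were counted is not given in the sources used here.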

How the data were processed

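RNA-Seq of 3 Parent and 3 BL-B01D1_R libraries was analyzed. The authors purified mRNA with oligo-dT, mapped reads to hg38 with HISAT2 2.0.5 and counted them per gene with featureCounts 1.5.0-p3. They deposited raw counts with gene position and length (bases, another quantity) in 1 table. The annotation release and strand setting are not given in the sources used here. The number of unused columns of per-sample values was 0.

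From the counts, genes were kept by filterByExpr, scaled by TMM and tested with edgeR 4.0.16 (quasi-likelihood, R 4.3.3), and p-values were adjusted by Benjamini-Hochberg over 17142 genes. The SE is the log2 fold change divided by the square root of F. FPKM was computed from TMM-scaled counts and listed length. Alternatives were limma-voom and limma on log2(FPKM + 1) (limma 3.58.1), DESeq2 1.42.0, library size alone, upper quartile, no filter, a floor of 10 counts in each library, the replicate number as a block, and each library left out. Nothing states that libraries came from separate cultures, so p-values measure the spread between these libraries. Counting intervals cover counting error only.

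The genes and lists were chosen with earlier results of these data known. Named list genes are the 2 highest and 2 lowest log2 fold changes at an FDR of less than 0.05 (1 and 1 for lists under 7 genes) and all called genes. Pairs of libraries within a group differed by more than sampling noise (chi-square per degree of freedom of 1.77 or more). On simulated counts for 17142 genes in this comparison, edgeR recovered 189 of 200 genes changed by a log2 value of 2, with 1 false call. The simulation did not cover changes as small as those of the enzyme genes. The reference sequences at hand were of mouse, so no sequence is printed and the planned motif searches were not run.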

Additional observations from a re-analysis of the deposited data

How the results depend on the processing

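Of 444 values compared for the main results, 418 stayed within a set tolerance and 26 moved, and the cause of each move was not tested. For counts of genes, the tolerance was a fixed factor and not a spread between libraries. Unequal counts could thus stay within it, such as 378 genes called higher with DESeq2 against 434. SLC5A6, at a log2 fold change of 3.71, was 3.55 with limma on log2(FPKM + 1) and 3.67 to 3.76 with each library left out. It was the 1 gene of the set called higher, with 0 called lower, under every alternative run. Since SLC5A6 was chosen by its change in these same libraries, that repeated call is a description and lends it no support. Among the enzyme genes, only PCCA changed sign, between −0.046 and 0.019 with each library left out. The numbers called higher and lower over all genes, 434 and 487, were 116 and 64 with limma on log2(FPKM + 1), 248 and 287 with at least 10 counts in every library, and 415 to 450 and 471 to 493 with each library left out.

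For the lists, SLC5 genes at an FDR of less than 0.05 were 2 higher with no filter, 0 higher with at least 10 counts in every library and 1 lower with limma on log2(FPKM + 1), and 1 to 2 higher and 1 to 2 lower with each library left out. Where 2 were higher, the second was SLC5A8, which the usual filter removed. Genes of other vitamin carriers were 1 lower with limma on log2(FPKM + 1) and 1 to 3 lower with each library left out. Genes beside PC were 1 lower with DESeq2 and with no filter, and 0 to 1 higher and 1 to 2 lower with each library left out. Genes around ACACA and ACACB were 1 to 3 higher with each library left out. For 37 single genes named in the text, the log2 fold change had the same sign and side of the FDR threshold in 500 of 514 comparisons. It changed sign in 5 and no longer passed in 9. The fold threshold was not part of this comparison. With limma on log2(FPKM + 1), SLC5A9, SLC30A3 and BCAT1, for example, did not reach the fold threshold (log2 values of 0.23, 0.24 and −0.62). SLC5A3, SLC19A1 and GCSH no longer passed the FDR threshold with that method. With each library left out, LRFN4 ranged from −0.039 to 0.12 and PREB from −0.094 to 0.042, neither of them past the threshold. The ratio of SLC5A6 to the other genes depends on listed lengths, and genes under about 10 counts, such as SLC30A3, are poorly measured at this depth.

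Replicate numbers are shared by the groups, but same-numbered libraries did not deviate together (r across genes of −0.0081, −0.020 and −0.016). The main fit therefore used no pairing, although an r near 0 does not show whether same-numbered libraries shared a batch. In a fit that blocked on the number, the calls came to 418 higher and 471 lower, and SLC5A6 had a log2 fold change of 3.71.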

Other observations

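SLC5A8, a carrier of short-chain fatty acids and lactate in the same family as SLC5A6, fell below the filter on low counts, with 1, 1 and 0 counts in Parent and 10, 14 and 16 counts in BL-B01D1_R. The ratio of the summed counts per depth was 19.9, with a 95% counting interval of 5.17 to 170, and this interval covers counting error only. Where an alternative let it through, SLC5A8 was higher, with a log2 fold change of 4.11 with no filter (edgeR FDR 3.89e-06) and of 3.68 to 4.41 in the 4 fits without 1 of the Parent libraries or the first BL-B01D1_R library. These fitted values depend on the prior count.

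BCKDHA, the partner of BCKDHB in the branched-chain ketoacid dehydrogenase, had at most 3 counts in any library, although BCKDHB had 10.5 FPKM in Parent. The table lists another protein-coding gene, AC011462.1, on the same strand over 27542 bases of BCKDHA, with 0 counts in every library. SLC25A32, the mitochondrial folate carrier, had 3 to 18 counts and is likewise overlapped over 16532 bases on its own strand by a protein-coding gene, AC012213.5, with at most 4 counts. How reads that fall on such overlaps were counted is not given in the sources used here.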
